A study of Mus musculus with 10 samples.

Results

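The transcripts described here stood higher in heart and in muscle than in any other tissue of a 10-tissue mouse series measured on a splicing microarray. They numbered 33 of the 3126 alternative splicing events on the array. The tissues, in the words of the labels, were heart, muscle, testis, spleen, salivary, lung, liver, kidney, intestine and brain. Each was 1 sample of total RNA pooled from mice of the outbred CD1 strain, and no genotype or treatment is named for any of them. The labels do not give the number or age of the pooled animals or say which muscle was taken. Every event had 7 probes: C1, A and C2 in the body of a flanking exon, the alternative exon and the second flanking exon, C1:A and A:C2 across the junctions made when the exon is included, C1:C2 across the junction made when it is skipped, and a probe marked INT whose target the sources used here do not state.

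Events were chosen by their level, the average of the C1 and C2 probes after each array was centred on its median. An event was selected when the lower of its heart and muscle levels exceeded the highest level among the other 8 tissues by 0.5 units or more, and this difference is called its margin. The values follow a compressed, log-like scale from 0 to 8.66 whose base is not stated, so differences are given in units of that scale and never as folds. Of all events 1.06% met this rule, and since the levels chose them, the levels are given as a description. The A probe, the junction probes and INT took no part in the choice, but they were read on the same arrays and a junction probe spans the ends of the exons it joins, so they are not replicates. With 1 sample per tissue no difference was tested. Pooled whole-tissue RNA also cannot tell fewer cells of a type from less RNA per cell.

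Heart and skeletal muscle are the striated muscles of the body. Their cells hold sarcomeres, the repeating units of actin and myosin filaments that shorten in contraction, and they draw on a shared set of genes for contraction, calcium handling and energy supply. Many of these genes, among them those of troponin T, tropomyosin and titin, make different proteins through alternative exons in different muscles and at different ages, under RNA-binding proteins such as those of the MBNL, RBFOX and CELF families. The table gives event numbers without genes or probe sequences, so the 33 events are named by number here, the identity of the tissues was not checked against marker genes, and no sequence is printed.

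Most of the 33 events were graded rather than restricted. Margins had a median of 0.69, with 26 events under 1, 7 at 1 or above and 2 above 2. Across the set the level in heart ran from 1.01 to 3.88 with a median of 2.40, and in muscle from 1.05 to 3.62 with a median of 2.45. The medians elsewhere lay between 0.25 in testis and 0.87 in lung. As a guide to low signal, both flanking probes were compared with the 95th percentile of the INT probes of the array, a limit that differs between arrays. They exceeded it for 31 of the 33 events in heart, where 29.4% of all events did, and for 27 in muscle, where 14.0% did. Counts elsewhere were 12 in kidney, 11 in liver, 10 in brain and in lung, 6 in intestine, 4 in salivary, 3 in testis and 2 in spleen, beside 32.0%, 34.2%, 26.0%, 14.4%, 22.2%, 8.16%, 25.6% and 14.4% of all events. For 8 events the flanks passed in both heart and muscle and in none of the other 8 tissues, as in 0.608% of all events. For 5 more they passed in none of the 8 but not in both heart and muscle either. The same C1 and C2 probes chose the events. Counts above the share of all events in heart and muscle, or in both and nowhere else, therefore follow from the rule and are only a description.

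**Figure D1:**
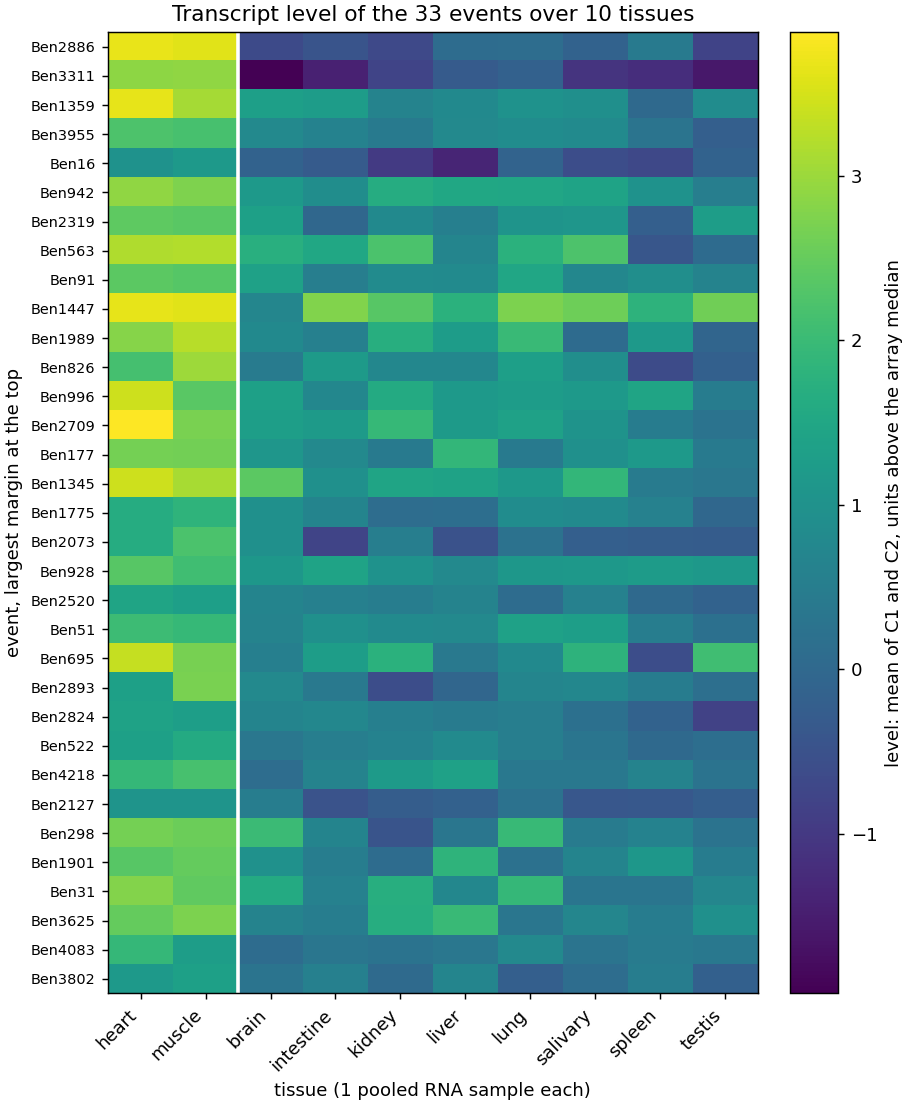
Level of each of the 33 events (rows, largest margin at the top) in the 10 tissues (columns), as the average of C1 and C2 in units above the array median, with 1 sample per tissue. The first 2 columns, heart and muscle, run from 1.01 to 3.88 and hold the highest values of every row, and Ben2886 and Ben3311, at the top, join levels of 2.88 or more in heart and muscle to at most 0.42 in the other 8 tissues.

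The event with the largest margin was Ben2886. Its level was 3.67 in heart and 3.61 in muscle, while the other 8 tissues had a lowest value of -0.79 in testis, a median of -0.30 and a highest value of 0.42 in spleen. Heart and muscle thus stood at nearly the same level, 3.18 above the next tissue. Ben3311 came next, with 2.88 in heart, 2.91 in muscle, and -1.97, -1.14 and -0.15 as the lowest, median and highest of the others, a margin of 3.03. Brain was the lowest tissue for this event and lung the highest after the striated muscles. These were the only events with margins above 2.

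Ben1359 followed at a margin of 1.76. Its level was 3.66 in heart and 3.10 in muscle, against 0.03 in spleen, a median of 0.90 and 1.34 in brain. Here the transcript was read at a moderate level in most other tissues. Ben3955 read 2.25 in heart and 2.17 in muscle, with -0.20, 0.70 and 0.87 for the others, a margin of 1.29. Ben16 read 1.01 in heart and 1.20 in muscle against -1.36, -0.44 and -0.12, a margin of 1.13. Its heart level was the lowest of the 33 events, though above the median of all events, 0.48 in heart and 0.34 in muscle. Ben942, at 2.90 in heart and 2.74 in muscle against 0.52, 1.30 and 1.65, had a margin of 1.09. Ben2319 stood at 2.43 in heart and 2.37 in muscle against -0.19, 0.92 and 1.35, a margin of 1.03. In Ben3955, Ben16, Ben942 and Ben2319 the values of heart and muscle differed by less than 0.2 units.

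The margins of the next 5 events lay under 1. Ben563 read 3.18 in heart and 3.20 in muscle, but salivary and kidney were also high, at 2.25 and 2.23, and spleen was lowest at -0.40. Its margin was 0.92. Ben91 read 2.40 and 2.34, with lung next at 1.49 and intestine lowest at 0.53. The profile of Ben1447 was different, since 5 of the other tissues read above 2.3. It stood at 3.67 in heart and 3.62 in muscle, with intestine at 2.77, lung at 2.71, testis at 2.62, salivary at 2.58 and kidney at 2.35, and brain lowest at 0.72. Ben1989 read 2.81 in heart and 3.25 in muscle, with lung next at 1.98 and testis lowest at -0.07. Ben826 read 2.15 in heart and 3.03 in muscle, with lung next at 1.33 and spleen lowest at -0.65. After quantile normalization the margins of Ben563, Ben1447 and Ben1989 were 0.46, 0.34 and 0.42, under the limit of the rule.

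Just inside stood Ben3625 with a margin of 0.51, Ben4083 with 0.50 and Ben3802 with 0.50, and just outside Ben4267 with 0.48, Ben2128 with 0.48 and Ben1446 with 0.47. Over all 3126 events C1 alone passed the margin of 0.5 in 1.06% and C2 alone in 1.22%. In 17 of the 33 events each of them did. Only C1 passed in 7, only C2 in 6, and in 3 neither did alone. In Ben51 and Ben2893 a C1 probe of another tissue even exceeded the lower of heart and muscle, with margins of -0.25 and -0.38 for C1 against 0.62 and 0.63 for C2. The size of the set also depended on single tissues. Without brain as a comparator 53 events met the rule, and with any other tissue left out between 34 and 40 did.

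Among the other tissues, brain and lung came closest. Each was the highest of the 8 for 9 events, followed by liver for 6, intestine and kidney for 3 each, and salivary, spleen and testis for 1 each. At the low end testis was lowest for 11 events and spleen for 6. The events did not share a profile over the other 8 tissues: Pearson's r between their levels had a median of 0.14 over 528 pairs of events and ran from -0.91 to 0.97, and the points of every pair share the same 8 arrays. The most alike were Ben177 and Ben1901, with r = 0.97 over these 8 tissues. Ben177 read 2.65 in heart and 2.64 in muscle, then 1.91 in liver and 1.17 in spleen, and Ben1901 read 2.36 and 2.50, then 1.84 and 1.13. Whether they report on the same gene is not known from the table.

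The next question was whether the remaining probes of each event, which did not enter the choice, set heart and muscle apart in the same way. Over all 3126 events the share with the lower of heart and muscle at least 0.5 above every other tissue was 1.22% for the A probe, 1.18% for C1:A, 1.15% for A:C2 and 1.12% for C1:C2. Among the 33 events it was 15 for A, 12 for C1:A, 18 for A:C2 and 17 for C1:C2. These shares lie far above the background, but the probes report on transcripts that were chosen as high. With any positive margin the counts were 22 for A, 20 for C1:A, 22 for A:C2 and 21 for C1:C2, where 3.42%, 4.32%, 3.81% and 4.51% of all events qualified. The median margin over the 33 events was 0.37 for A, 0.23 for C1:A, 0.67 for A:C2 and 0.56 for C1:C2, while over all events it lay between -1.26 for A:C2 and -1.12 for C1:C2. Against the median of the other 8 tissues, rather than the highest, the lower of heart and muscle was higher in 31 of the 33 events for A, 28 for C1:A, 28 for A:C2 and 31 for C1:C2, where 29.5%, 32.8%, 32.8% and 35.5% of all events qualified.

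The events differed in which of these 4 probes passed 0.5. In 10 the skipping junction C1:C2 and at least 1 of the inclusion probes A, C1:A and A:C2 passed. In 13 at least 1 inclusion probe passed and C1:C2 did not. In 7 only C1:C2 passed, and in the remaining 3, Ben2073, Ben522 and Ben298, none of the 4 did. Over all 3126 events none of the 4 passed in 97.3%, 1.54% had inclusion probes without C1:C2 and 0.576% had C1:C2 without inclusion probes. The small remainder had C1:C2 together with at least 1 inclusion probe.

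**Figure D2:**
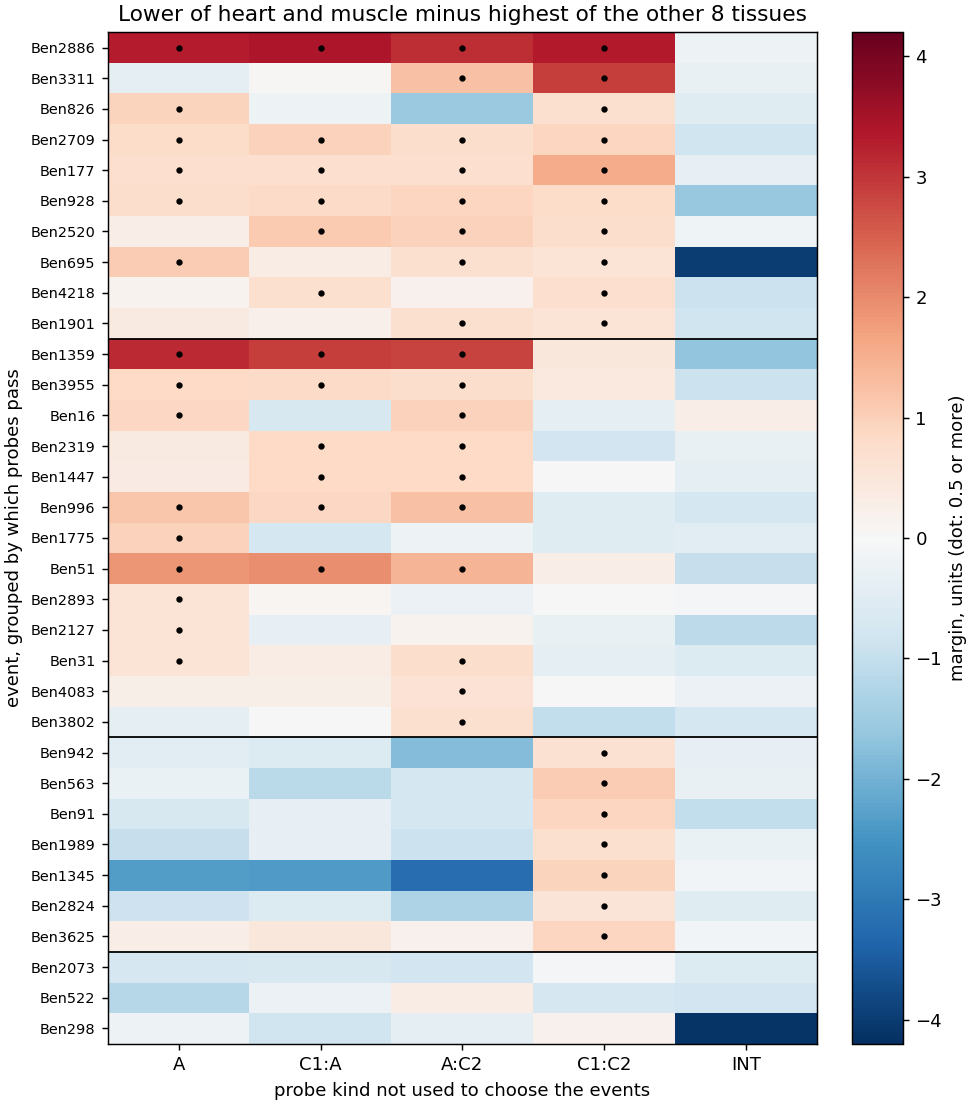
Margin of heart and muscle over the other 8 tissues (colour, in units) for the probes that did not enter the choice (columns), in the 33 events (rows). Dots mark margins of 0.5 or more, lines part the events into the groups of 10, 13, 7 and 3 by which probes passed, and no INT probe carries a dot.

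In 4 of the 10 events of the first group, Ben2886, Ben2709, Ben177 and Ben928, all 4 probes passed, as they did in 0.16% of all events. Ben2886 was the plainest case. Its A probe read 3.41 in heart and 3.50 in muscle, against -1.60, -1.04 and 0.12 as the lowest, median and highest of the others. C1:A read 3.97 and 3.61 with at most 0.23 elsewhere, A:C2 3.60 and 3.35 with at most 0.24, and C1:C2 3.36 and 3.14 with at most -0.18. Inclusion and skipping junctions thus stood apart together, and spleen gave the highest value of the other tissues in all 4 of these probes and in C1. Its C2 probe behaved a little differently, with 1.02 in salivary and 0.95 in spleen. In Ben177 the margin was largest for C1:C2, at 1.55, where heart and muscle read 2.29 and 2.45 and liver, the next tissue, 0.74. A, C1:A and A:C2 of that event had margins of 0.69, 0.71 and 0.72. Ben826, Ben2520, Ben695, Ben4218 and Ben1901 also belonged to this group, with C1:C2 margins of 0.67, 0.75, 0.56, 0.71 and 0.57. In Ben2520 and Ben695 most of the inclusion probes passed with C1:C2, and in the other three a single one did.

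Ben3311 counted in the first group through A:C2, yet its probes parted sharply. The skipping junction read 3.13 in heart and 3.07 in muscle, against -1.12, -0.58 and 0.17 for the lowest, median and highest of the others. The A probe read 1.69 in heart and 1.17 in muscle, within reach of the other tissues, where it ran from -1.22 in testis to 1.59 in lung. C1:A stood at -0.13 in heart and -1.20 in muscle, and A:C2 at 0.62 and -0.04, against medians of -1.77 and -1.84 elsewhere. Relative to its flanks, the rise of A over the median of the other tissues was 3.14 units short in heart and 3.70 short in muscle, more than in any other of the 33 events. The rise over the other tissues was thus larger at the flanks and the skipping junction than at the probes of the exon.

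The group with inclusion probes but not C1:C2 was led by Ben1359. Its A probe read 3.85 in heart and 3.07 in muscle, and -1.33, -0.70 and -0.05 elsewhere, a margin of 3.12. C1:A read 3.09 and 2.62 with at most -0.27 in the others, and A:C2 3.48 and 3.04 with at most 0.19. The skipping junction was higher in muscle, at 2.60, than in heart, at 1.87, and reached 1.38 in brain, so its margin of 0.49 just missed. In this event the probes of the exon separated heart and muscle from the rest more widely than the flanks did, whose margins were 1.71 for C1 and 1.81 for C2.

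Ben51 showed the same order with a lower level margin of 0.59. The A probe read 2.24 in heart and 2.61 in muscle against -1.50, -1.01 and 0.37, C1:A 2.08 and 2.30 with at most 0.12, and A:C2 2.08 and 2.51 with at most 0.67. Lung was the next tissue for all 3. C1:C2 read 1.90 and 2.19 and also 1.60 in salivary and 1.59 in lung. Ben996 had margins of 1.18 for A, 0.86 for C1:A and 1.23 for A:C2. Its skipping junction read 2.63 in heart but 0.68 in muscle, below the 1.18 of kidney. In Ben31, A read 3.84 in heart, 3.01 in muscle and 2.45 in brain, and A:C2 3.69, 2.74 and 1.99, whereas in the other 7 tissues A reached at most 0.92 and A:C2 at most -0.14. For this exon brain therefore stood with heart and muscle. Of the rest of this group, Ben3955 passed at A, C1:A and A:C2, Ben2319 and Ben1447 at C1:A and A:C2, and Ben16 at A and A:C2. Ben1775, Ben2893 and Ben2127 passed at A alone, by 0.96, 0.58 and 0.59, and Ben4083 and Ben3802 at A:C2 alone, by 0.61 and 0.67.

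**Figure D3:**
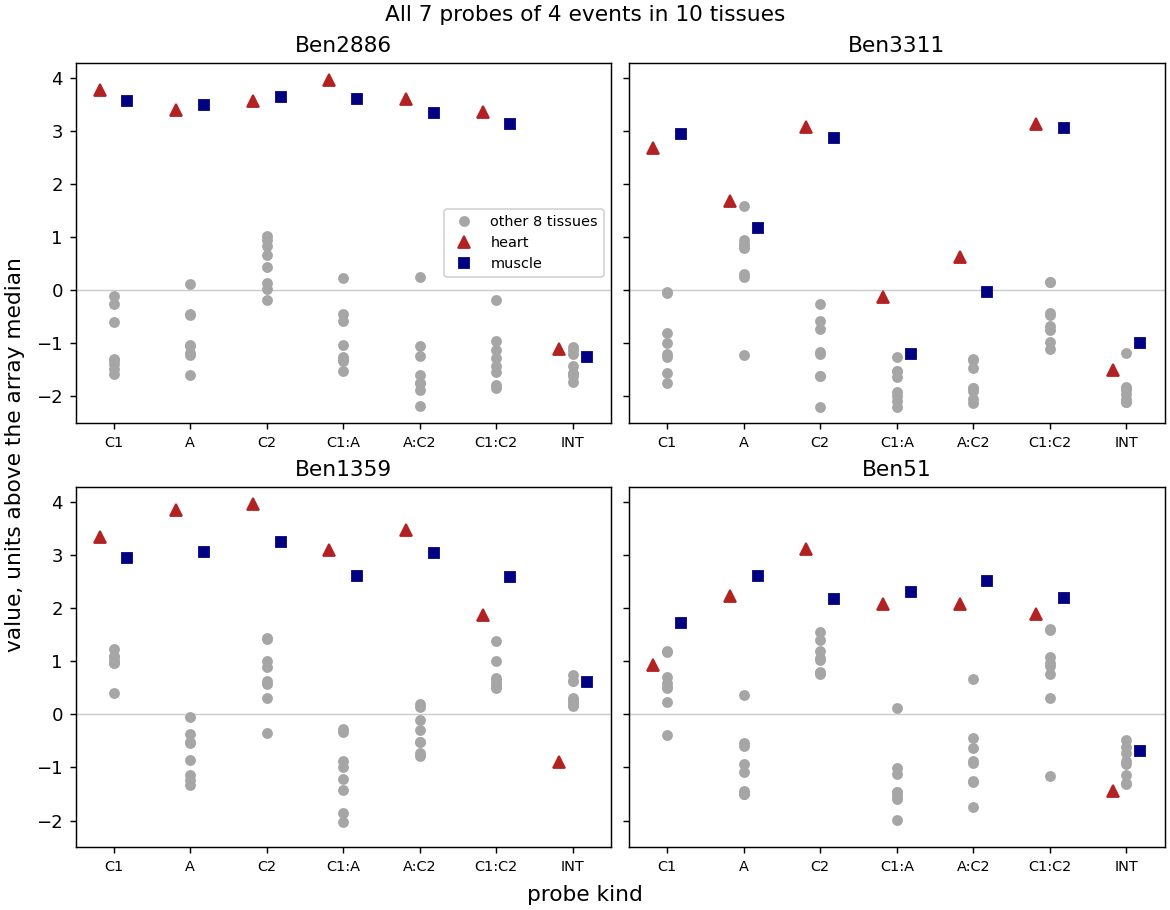
All 7 probes of 4 events in units above the array median, with heart as triangles, muscle as squares and the other 8 tissues as grey circles, 1 sample each. In Ben2886 all 6 exon and junction probes of heart and muscle read from 3.14 to 3.97, in Ben3311 C1:C2 reads above 3 while C1:A stays below 0, and in Ben1359 and Ben51 the A, C1:A and A:C2 probes part heart and muscle from the rest.

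In the 7 events where only C1:C2 passed, the inclusion probes had median margins of -0.66 for A, -0.57 for C1:A and -0.89 for A:C2, and the skipping junction 0.89. The widest gap was in Ben1345. Its C1:C2 junction read 3.57 in heart and 2.90 in muscle, 1.98 in brain and at most 1.63 elsewhere. Its A probe read -0.84 in heart and -0.11 in muscle but 1.51 in brain, and C1:A and A:C2 read 2.23 and 1.85 in brain against -0.12 and -1.35 in heart and -0.14 and -0.87 in muscle. In this event, brain had the highest inclusion probes and heart and muscle the highest flanks and skipping junction.

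Ben563 had its skipping junction at 3.18 in heart and 2.94 in muscle, with a lowest value of -0.61, a median of 1.19 and a highest of 1.89 elsewhere. Its A probe read -0.18 and 0.49, with the others between -0.68 and 0.11. In Ben1989 the junction C1:C2 read 2.74 and 3.30 against 0.17, 1.01 and 2.06, and A read -1.19 and -0.83 against -2.04, -1.53 and -0.23. Over all 10 tissues the A probe of Ben563 thus stayed between -0.68 and 0.49 while its C1 probe ran from -0.61 to 3.18. Ben942 read 1.94 in heart and 2.42 in muscle at C1:C2, with at most 1.31 in the others, and its A:C2 junction was highest in lung, at 2.14. The remaining events of this group were Ben91, Ben2824 and Ben3625, with C1:C2 margins of 0.89, 0.56 and 0.90.

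Of the 3 events where no further probe passed, Ben2073 rested largely on C2, which read 2.67 in heart and 3.70 in muscle, 1.96 in brain and at most 0.66 in the remaining tissues. Its A probe was near the bottom of the scale in every tissue, at -1.70 in heart and -1.91 in muscle. In Ben298, brain and lung came close behind heart and muscle at C1, with 2.50 and 2.43 against 3.23 and 3.03. In Ben522 intestine had the highest A probe, at 2.21 against 0.99 in heart and 1.70 in muscle.

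Heart and muscle were then set directly against each other. A difference was counted when it reached 2 robust SDs (median absolute deviation times 1.4826) of heart minus muscle over all events, which was 1.11 units for level. Of all 3126 events, 6.59% were higher in heart by this threshold and 2.98% in muscle. Among the 33 it was 1 each, Ben2709 in heart and Ben2893 in muscle. The absolute difference had a median of 0.17 in the 33 events and 0.38 in all events, and 18 of the 33 lay within 0.2 units of equality, against 28.2% of all events. The rule took the lower of the 2 values, which favours events with near-equal levels. Heart was the higher in 19 of the 33 and muscle in 14, with heart higher in 58.3% of all events.

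Ben2709 read 3.88 in heart and 2.70 in muscle, a difference of 1.18, with 0.26, 1.21 and 1.95 as the lowest, median and highest elsewhere. All 6 exon and junction probes were higher in heart, by 0.76 for C1 to 1.59 for C2, so the probed exons and junctions differed in one direction. Ben996 was next, at 3.42 against 2.39, with 6 of 6 probes higher in heart and a difference of 1.04 that missed the threshold. Ben695 and Ben4083 followed, higher in heart by 0.68 and 0.63, again in 6 of 6 probes. After quantile normalization the differences of Ben2709 and Ben996 were 0.79 and 0.73.

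Ben2893 read 1.35 in heart and 2.71 in muscle, a difference of -1.36, and all 6 probes were higher in muscle. The gap was widest at C1:A, with -0.25 in heart and 2.03 in muscle, and at A:C2, with 0.40 and 2.64. In heart this event stood only 0.57 above brain, the next tissue, and it left the set with columns as deposited and after quantile normalization. Ben826 was higher in muscle by 0.88, also in 6 of 6 probes, and Ben2073 by 0.56 and Ben1989 by 0.44. Over the set, all 6 probes were higher in heart in 6 events and in muscle in 7, where 17.1% and 9.72% of all events had this.

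**Figure D4:**
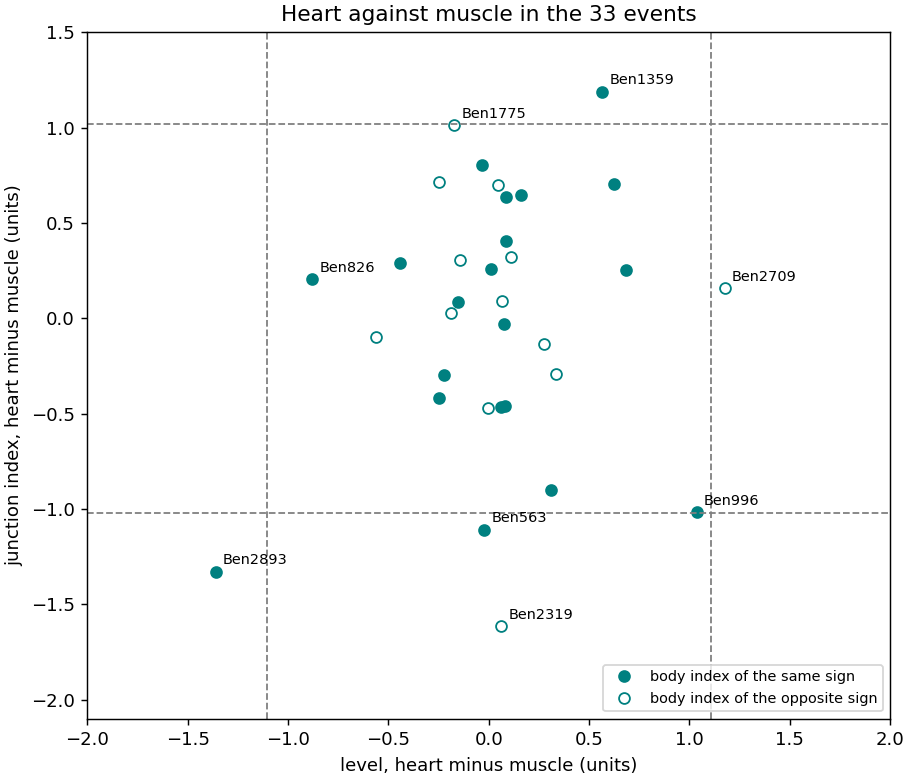
Heart minus muscle for the 33 events, with the difference in level on the horizontal axis and in the junction index on the vertical axis, both in units. Dashed lines mark the thresholds of 1.11 and 1.02, open circles are events whose body index differs in the other direction, and most events lie inside the dashed lines with Ben2709, Ben2893, Ben1359, Ben563 and Ben2319 beyond at least 1 of them.

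Exon use was compared through a junction index, in which C1:C2 is subtracted from the average of the inclusion junctions. A body index, in which the average of the flanks is subtracted from A, had to have the same sign. The index sets different probes of an event against each other, so only its difference between tissues is read. All 33 events had flanks above the lowest 25% of values in heart and in muscle. At 2 robust SDs, 1.02 units, 1 exon was more included in heart, where 2.64% of 2193 testable events were, and 2 were more skipped in heart, where 3.78% were. Counts this small sit near the background. For 4 robust SDs no event of the 33 qualified in either direction.

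The exon of Ben1359 was the one more included in heart. Its index was higher there by 1.19, with the skipping junction 0.73 lower in heart and A 0.78 higher, but the body index differed by only 0.22. The exons counted as more skipped in heart were those of Ben563, by an index difference of -1.11 and a body difference of -0.64, and of Ben2893, by -1.33 and -0.32. In Ben2893, however, the skipping junction itself was lower in heart, at -0.99 against -0.06 in muscle. From the median of the other 8 tissues its index differed by -0.02 in heart and 1.30 in muscle, so muscle was the tissue that stood apart. In Ben563 the flanks were equal to within 0.21 units, while A, C1:A and A:C2 were lower in heart by 0.67, 1.18 and 0.56. After quantile normalization the index difference of Ben563 was -0.83. The index of Ben2319 differed most, by -1.62, because C1:C2 read 1.45 in heart and -0.31 in muscle, but its body index differed by 0.12 in the other direction and it was not counted. Ben996 just missed the threshold of 1.020, with an index difference of -1.018 and a body difference of -0.36.

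Against the other 8 tissues, an exon was counted when its junction index lay at least 4 robust SDs, 1.65 units, from their median, again with a body index of that sign and with flanks above the lowest 25% of values. This left 31 of the 33 events, since Ben2886 and Ben3311 were too low elsewhere. In heart 4 exons were more included, those of Ben1359, Ben31, Ben1775 and Ben51, where 0.78% of 2309 testable events were, and 2 were more skipped, Ben563 and Ben1345, where 1.47% were. In muscle 3 were more included, Ben31, Ben51 and Ben996, where 1.08% of 2318 were, and 0 were more skipped, where 0.733% were. Both tissues shared 2, Ben31 and Ben51, both more included, against 0.509% of 2159 events testable in both. With flanks required to exceed the INT limit only 6 of the 33 events could be compared. Ben996 in muscle was then the only one of these included exons still counted, where 2.9% of 276 testable events were more included. Ben563 and Ben1345 were still counted as more skipped in heart, where 2.12% of 425 testable events were. These filters screen the flanks only, not the inclusion probes. In heart C1:C2 of Ben1345 stood 2.70 above the median of the other 8, C1:A 1.31 and A:C2 0.14 above. In Ben563 the same differences were 1.99, -0.69 and -0.19. How far low inclusion signal shaped these counts was not tested. After quantile normalization Ben31 and Ben51 no longer met the rule for the set, nor did Ben31 with columns as deposited, although after quantile normalization their index deviations were 2.46 and 1.84 in heart and 2.97 and 1.88 in muscle.

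The index deviated by 2.52 in heart and 2.81 in muscle for Ben31, and by 1.83 and 1.86 for Ben51. For Ben1359 it was 2.70 in heart and 1.51 in muscle, just short of the threshold. Ben1775 stood at 1.85 in heart and 0.83 in muscle, and Ben996 at 0.78 and 1.79. The skipped exons stood at -2.50 in heart and -1.39 in muscle for Ben563, and at -2.06 and -1.16 for Ben1345. A count in 1 of the tissues therefore came with a junction index deviation of the same sign in the other in each of these cases. The body index also had this sign, except for Ben996 in heart, at -0.03. Over the 33 events the signs of the junction index agreed in 28, 15 above and 13 below the other tissues, and over all events in 60.9%. Heart and muscle were set against the same 8 samples, so their deviations are not independent. The 33 events were also chosen as high in both tissues, so their agreement in sign cannot be weighed against the share of all events.

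In Ben1775 the junction probes themselves disagreed. C1:A read 0.90 in heart and -0.49 in muscle, while A:C2 read -0.14 in heart and 0.68 in muscle, and the A probe read 1.95 and 2.33 with 0.99 in brain and at most 0.14 elsewhere. Its skipping junction was highest in muscle, at only -0.80. Without a filter on the flanks, the exon of Ben3311 was counted as more skipped in muscle. Its junction index deviated there by -2.34 and its body index by -3.47, and by -1.54 and -2.92 in heart. In muscle C1:A, A:C2 and C1:C2 of Ben3311 were 0.57, 1.80 and 3.64 above the median of the other 8. Both inclusion junctions were near the bottom of the scale in the other 8, so these sizes are not exact.

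**Figure D5:**
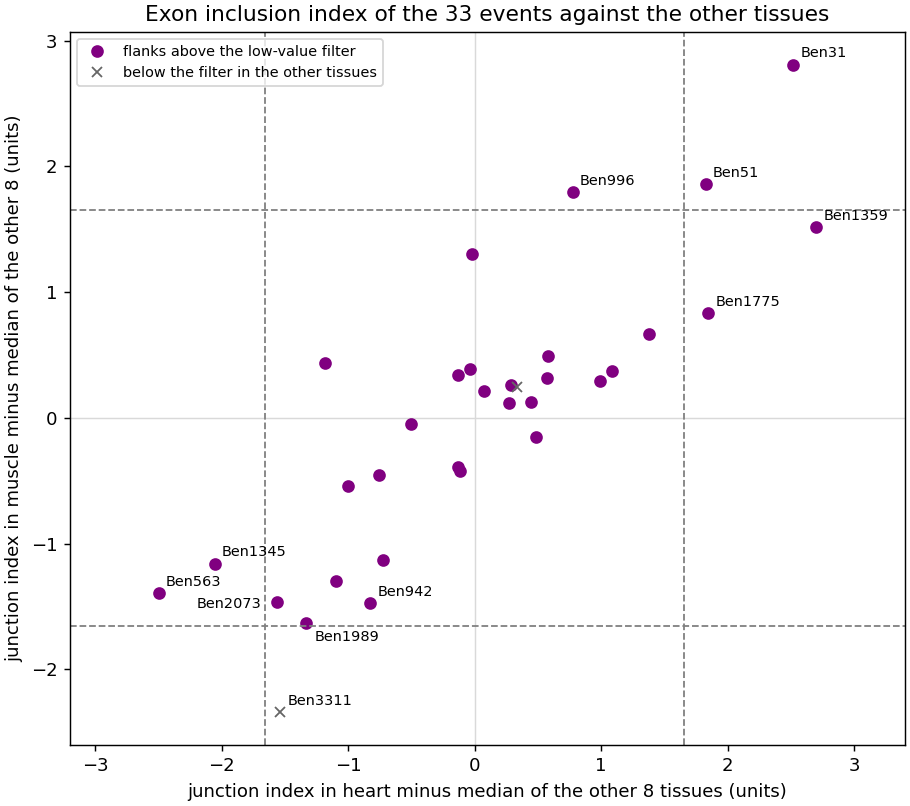
Deviation of the junction index from the median of the other 8 tissues, in heart on the horizontal and in muscle on the vertical axis, in units, for the 33 events. Dashed lines mark 1.65 units, crosses are the 2 events whose flanks were too low elsewhere, and Ben31 and Ben51 lie beyond the line in both tissues.

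The INT probes of the set showed little separation of heart and muscle from the other tissues. Their margin was positive in 1 of the 33 events, Ben16, at 0.29, with -0.38 in heart and -0.93 in muscle, where 1.34% of all events had a positive margin. A margin of 0.5 was reached by 0 of the 33 and by 0.064% of all events, a share too small for that count to be read. The next margins were -0.07 in Ben2893 and -0.12 in Ben3625. The lower of heart and muscle was above the median of the others for INT in 16 of the 33 events, where 24.5% of all events qualified, and this difference had a median of -0.0012 in the 33 and -0.20 in all events. INT medians over the set were highest in heart, -0.82, and muscle, -0.93, and ran from -1.29 in lung to -0.94 in salivary elsewhere. Over all events the INT medians were -0.91 in heart and -0.98 in muscle, and ran from -1.07 in lung to -0.76 in kidney elsewhere. The highest INT value of an event fell in heart for 7 of the 33, 21.2% against 11.5% of all events, and in muscle for 3, 9.09% against 6.11%. Heart was thus the tissue that most often held the highest INT value of the set. In Ben298 INT read 4.002 in testis and at most 1.67 elsewhere, a value with no counterpart in the other probes of that event, and in Ben695 it read -2.07 in heart and 1.91 in kidney.

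The same rule was applied to each of the 45 pairs of tissues to place the size of the set. Kidney and liver had 104 events, liver and testis 52, brain and testis 44, heart and muscle 33, and spleen and testis 28. Heart together with lung gave 20, with brain 16, and muscle with brain 14. The probes outside the choice passed in 15 (A), 12 (C1:A), 18 (A:C2) and 17 (C1:C2) of the 33 heart and muscle events, and in 67, 67, 67 and 49 of the 104 kidney and liver events. Over all events the shares for kidney and liver were 3.36%, 3.17%, 3.45% and 2.11%, higher than the 1.22%, 1.18%, 1.15% and 1.12% for heart and muscle. The same probes passed in 27, 28, 29 and 23 of the 52 liver and testis events, beside 1.28%, 1.38%, 1.41% and 1.28% of all events. For brain and testis they passed in 14, 9, 15 and 12 of the 44, beside 1.5%, 1.25%, 1.15% and 1.18%. Differences between the sets were not tested.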

How the data were processed

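The deposited table holds 21882 probe values for each of 10 samples, 1 per tissue, read here as a score, as deposited, on a log-like scale of unstated base. The labels and the table do not state the normalization, scanner, dyes or background correction. No rows were duplicated, and no column of values was left unused. Arrays were centred on their medians, which lay between 2.04 and 2.19, and the share of probes at exactly 0 was 0.635% to 3.33%. Differences from values near 0 are not exact sizes.

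Since each tissue is a single array, nothing was tested and no p-value is given. The number of arrays limits the precision. The events and the lists of named items were chosen with earlier results of these data known. Named were the 12 events with the largest margin, the 4 with the largest level difference between heart and muscle in each direction, exons counted against muscle or the other tissues, the 3 with the highest and the 3 with the most lagging A probe, the 3 at each side of the edge and those with the highest INT margin; other events named were picked after their values were seen. Planned marker lists and averaging per gene were not applied, because event numbers were not paired with genes. The steps were tested on simulated data with planted shifts, where exons were called without the filter on flanks. This checks the calculations and not how often calls would be wrong in these data. Python 3.11.15, numpy 2.4.6, pandas 2.3.3 and matplotlib 3.10.9 were used.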

Additional observations from a re-analysis of the deposited data

How the results depend on the processing

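No paired analysis was possible because the tissues are single samples without replicate numbers. Averaging per gene was not run, since no gene names were paired with events. Leaving out single comparator tissues for the probe counts was chosen after seeing the data. It left 15 to 18 events for A, 12 to 14 for C1:A, 18 to 20 for A:C2 and 17 to 20 for C1:C2. The level margins of the 12 leading events, the 8 largest level differences between heart and muscle, and 20 junction index differences of the events named for exon use kept their sign with columns as deposited and after quantile normalization. Of the 20 body index differences of these events all kept it with columns as deposited and 19 after quantile normalization, the exception being Ben996 in heart, at -0.03 and then 0.09. Why the values below shifted was not tested, except that other thresholds and filters change counts by construction.

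With C1 and C2 each past the margin the set held 17 events, and without brain as comparator 53. With a margin of 0.25 it held 57, and A passed in 29, C1:A in 24, C1:C2 in 28 and INT in 1. With a margin of 1 it held 7, with 2, 2, 3 and 2 for A, C1:A, A:C2 and C1:C2, and with a margin of 2 it held 2, with 1, 1, 1 and 2. With columns as deposited the set held 26 events, all among the 33. Then 0 were higher in muscle, 1 exon was more skipped in heart than muscle and 1 more included in both than elsewhere. Quantile normalization gave 32 events, 26 of them among the 33. Then 0 were higher in heart, 2 exons were more included and 1 more skipped in heart than muscle. Against the other 8 tissues, 2 were more included in heart, 1 in muscle and 0 in both, and 1 was more skipped in heart and 2 in muscle. At 4 robust SDs, 0 events differed between heart and muscle in level or exon use, in either direction. Called by the body index, 0 exons were more included and 0 more skipped in heart than muscle. Against the other 8 the body index gave 1 more included in muscle, 1 in both, 1 more skipped in heart and 2 in muscle. With C1:A left out of the junction index 0 exons were more included in heart than muscle. At 2 robust SDs against the other 8, 6 were more included in muscle and 4 in both, and 6 were more skipped in heart, 7 in muscle and 4 in both. For the probe, level and exon counts of this section the shares of all events were not computed, apart from those at the INT limit. These counts are therefore not read as a trait of the set. Without a filter 1 was more skipped in muscle. With flanks above the INT limit, 6 of the 33 events were left to compare with the other 8. Then 0 were more included in heart, where 1.88% of 425 testable events were, and 1 in muscle, where 2.9% of 276 were. In both it was 0.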
